A study of Homo sapiens with 8 samples.

Results

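The related hairpins of miR-99a, miR-99b, miR-100, miR-125a and miR-125b were followed through 10 of their mature arms in spheroid cells of the human colorectal cancer line HCT116. The arms were chosen by name, as members of the clusters in the noncoding genes MIR100HG and MIR99AHG and of the cluster on chromosome 19. All 10 had a row among the 2026 rows of mature microRNAs (miRNAs, small RNAs that silence messenger RNAs they can pair with), and all 10 passed the filter on low counts, as did 570 rows in all.

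The study sorted spheroid cells by CD44v6, a variant of the cell surface receptor CD44 produced by alternative splicing and widely taken to mark stem-like tumour cells, and asked which miRNAs go with it. CD44v6-positive and CD44v6-negative cells, with 2 samples each, were compared by small RNA sequencing. Both groups were labelled only as HCT116 and were grown as spheroids in serum-free medium with B27, N2, basic fibroblast growth factor and epidermal growth factor in ultra-low-attachment flasks, then stained with an antibody to CD44v6 and sorted without dead cells. Messenger RNA was not measured here, so the sort could not be checked from these counts, and the groups are sorted cells of 1 cell line.

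The libraries differed in depth. The CD44v6-positive samples 1 and 2 held 919802 and 154481 reads, and the CD44v6-negative samples 1 and 2 held 7880631 and 4592278 reads, so depth and group cannot be told apart. Levels below are in CPM, the reads of a miRNA relative to the total of its library, after TMM, edgeR's correction for differences in library make-up. The TMM factors were 1.01 and 1.24 in CD44v6-positive samples 1 and 2 and 0.664 and 1.20 in CD44v6-negative samples 1 and 2. A level in CPM can therefore lie above or below the plain share of reads. The floor of 3 reads, which is as many as an observed 0 leaves possible, equals 3.23 and 15.6 CPM in the CD44v6-positive samples and 0.574 and 0.544 CPM in the CD44v6-negative samples, counting error only. All 6 markers of colonic epithelium had reads in every sample, with summed levels of 16827 and 13367 CPM in CD44v6-positive and 30074 and 17766 CPM in CD44v6-negative cells. Because these are bulk samples, fewer cells that carry a miRNA and fewer copies per cell cannot be told apart.

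The 3 clusters are copies of an ancient arrangement in which a miR-99 or miR-100 hairpin, a let-7 hairpin and a miR-125 hairpin lie on the same transcript. A hairpin is cut into a 5p and a 3p arm, and in all these families the 5p arm is the usual guide strand, which is loaded into the silencing complex, while the 3p arm is mostly discarded. A guide finds its targets mainly through its seed, bases 2 to 8. miR-125 descends from lin-4, the regulator of larval timing in Caenorhabditis elegans, and the miR-99 and miR-100 guides are known to repress MTOR. MIR100HG is known in colorectal cancer cells, where miR-100 and miR-125b have been tied to resistance to the antibody cetuximab.

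The guides show why the arms are grouped by seed rather than by cluster, and the mature sequences from RefSeq (GRCh38.p14) are given with the seed in capitals. All 10 arms matched a RefSeq sequence by name.
hsa-miR-100-5p: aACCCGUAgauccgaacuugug
hsa-miR-99a-5p: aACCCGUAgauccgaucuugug
hsa-miR-99b-5p: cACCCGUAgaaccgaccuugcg
hsa-miR-125b-5p: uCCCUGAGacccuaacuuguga
hsa-miR-125a-5p: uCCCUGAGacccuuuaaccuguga
miR-100-5p, miR-99a-5p and miR-99b-5p share the seed ACCCGUA, and miR-125a-5p and miR-125b-5p share the seed CCCUGAG. Counting from the 5′ end of miR-100-5p, miR-99a-5p differs from it only by A16U, while miR-99b-5p differs by A1C, U11A, A16C and U21C. miR-125a-5p has 24 bases against 22 in miR-125b-5p, and they are alike over the first 13 bases.

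The 3p arms tell the clusters apart, because the miR-125b guide is identical from both of its hairpins and its 3p arms are not.
hsa-miR-125b-1-3p: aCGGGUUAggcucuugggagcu
hsa-miR-125b-2-3p: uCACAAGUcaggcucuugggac
hsa-miR-125a-3p: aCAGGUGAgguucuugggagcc
hsa-miR-100-3p: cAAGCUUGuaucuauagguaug
hsa-miR-99b-3p: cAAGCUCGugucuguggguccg
None of these 5 arms shares its seed with another of them. miR-125b-1-3p and miR-125b-2-3p are 7 base changes, insertions or deletions apart, and miR-99b-3p shares its seed with miR-99a-3p, the remaining arm of MIR99A.

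In GRCh38 (GENCODE 29) MIR100 (chr11:122152229-122152308), MIRLET7A2 (chr11:122146522-122146593) and MIR125B1 (chr11:122099757-122099844) lie on the minus strand in introns of MIR100HG and span 52552 bases. MIR99A (chr21:16539089-16539169), MIRLET7C (chr21:16539828-16539911) and MIR125B2 (chr21:16590237-16590325) lie on the plus strand in introns of MIR99AHG and span 51237 bases. The cluster on chromosome 19 is far tighter. MIR99B (chr19:51692612-51692681), MIRLET7E (chr19:51692786-51692864) and MIR125A (chr19:51693254-51693339) lie within 728 bases on the plus strand, in an intron of the coding gene SPACA6.

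The 10 arms together took 15.1% and 8.60% of all reads in CD44v6-positive samples 1 and 2, and 22.0% and 14.7% in CD44v6-negative samples 1 and 2. The groups overlapped, since CD44v6-positive sample 1 lay just above CD44v6-negative sample 2. A single arm made up most of this. miR-100-5p ranked 2 and 5 by reads among all miRNAs in the CD44v6-positive samples and 1 in both CD44v6-negative samples. miR-99b-5p ranked 10 in both CD44v6-positive samples, against 9 and 7 in the CD44v6-negative samples. The MIR100HG and chromosome 19 clusters were both read at high levels, whereas the 2 of the 10 arms that only MIR99AHG can give were read at 115 CPM or less in every sample.

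**Figure D1:**
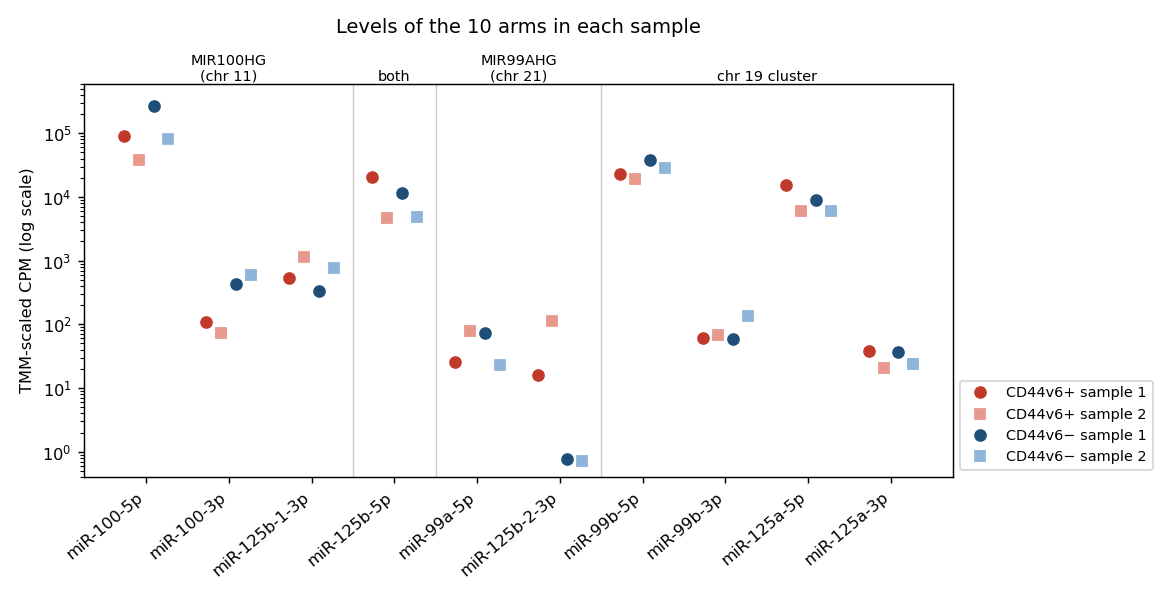
TMM-scaled CPM (log axis) of each of the 10 arms in the 4 samples, with CD44v6-positive samples (red) left of CD44v6-negative samples (blue) and circles and squares for samples 1 and 2. The 4 abundant guides lie at 4614 CPM or more in every sample, and miR-125b-2-3p is the arm whose groups stand farthest apart.

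No arm passed edgeR's quasi-likelihood test at a Benjamini-Hochberg adjusted p under 0.05 over the 570 miRNAs tested, of which 0% passed. At an unadjusted p under 0.05, 2 of the 10 arms stood out, miR-100-3p and miR-125b-2-3p, beside 30.5% of all miRNAs tested. Of these 1 was higher in CD44v6-positive cells, beside 13.0% of all, and 1 was lower, beside 17.5%. The same pair was called by DESeq2, which called 8.81% of the miRNAs to which it gave an adjusted p, 3.56% as higher and 5.25% as lower in CD44v6-positive cells, and limma-voom called none of the 10 and 0.702% of all. The groups did not overlap in 3 of the 10 arms, beside 59.5% of all miRNAs tested, with 1 higher (beside 24.9% of all) and 2 lower (beside 34.6% of all) in CD44v6-positive cells. Over the 10 arms the median of the log2 fold changes was 0.04, and over all miRNAs tested it was -0.31. Upper quartile and total count scaling moved the median of all miRNAs to 0.04 and 0.01, so fold changes are best read relative to it. Of the 10 arms, 4 had negative and 6 had positive log2 fold changes.

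**Figure D2:**
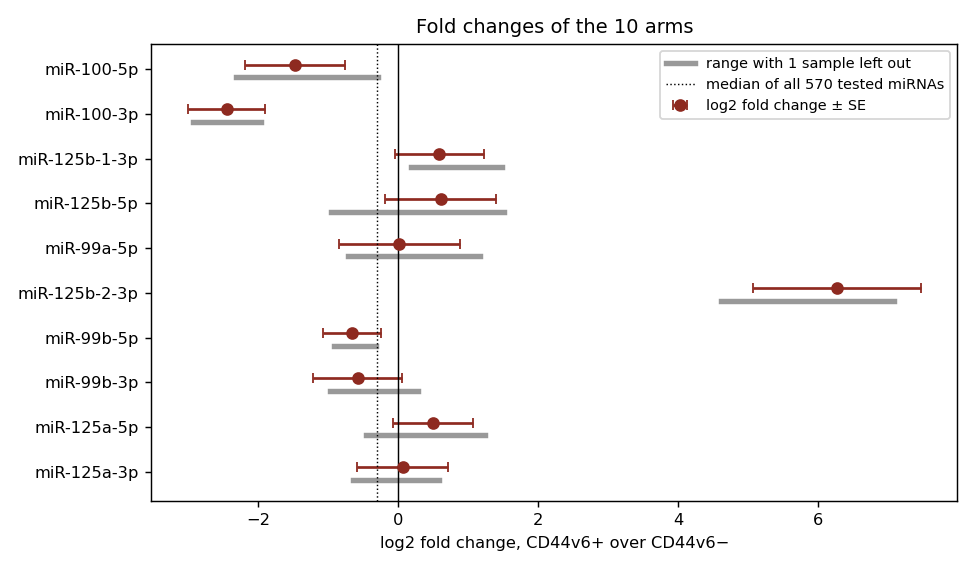
Log2 fold change of each arm, CD44v6-positive over CD44v6-negative, with its standard error (red) and, below it in grey, the range of the value when 1 sample is left out. Both arms of MIR100 lie below 0 and miR-125b-2-3p far above it, at 6.27, and the grey bars of 5 other arms cross 0.

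miR-100-5p, the guide of MIR100 and the most abundant arm, had 89507 and 37951 CPM in CD44v6-positive samples 1 and 2, against 272197 and 81445 CPM in CD44v6-negative samples 1 and 2. CD44v6-negative sample 1 was far above the rest, and CD44v6-positive sample 1 exceeded CD44v6-negative sample 2, so the groups overlapped at this scaling. As a plain share of library reads, without TMM, both CD44v6-positive samples lay below both CD44v6-negative samples. The log2 fold change was -1.47 ± 0.72 (SE, edgeR adjusted p = 0.216). It was -1.13 with upper quartile scaling and -1.02 with total count scaling. Leaving out a CD44v6-positive sample gave -2.33 for sample 1 and -0.80 for sample 2. Leaving out a CD44v6-negative sample gave -0.28 for sample 1 and -1.94 for sample 2.

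miR-100-3p, the passenger strand of MIR100, was lower in CD44v6-positive cells without overlap, as were 34.6% of all miRNAs tested. It had 110.0 and 72.9 CPM in the CD44v6-positive samples, from 102 and 14 reads, against 429.6 and 588 CPM in the CD44v6-negative samples, from 2247 and 3243 reads. Both CD44v6-positive samples lay below both CD44v6-negative samples, and the log2 fold change was -2.45 ± 0.55 (edgeR adjusted p = 0.0908). DESeq2 gave -2.58 (DESeq2 adjusted p = 0.00874). With edgeR and 1 sample left out, its log2 fold change ran from -2.93 to -1.97.

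miR-99b-5p, the miR-99 guide of chromosome 19, was steadier between replicates. It had 23183 and 19241 CPM in the CD44v6-positive samples, against 38299 and 28849.8 CPM in the CD44v6-negative samples, and the groups did not overlap. The log2 fold change of -0.66 ± 0.42 did not pass (edgeR adjusted p = 0.322), was -0.33 with upper quartile scaling, and ran from -0.92 to -0.32 with 1 sample left out. Its passenger miR-99b-3p had 61.5 and 67.7 CPM in the CD44v6-positive samples and 59.6 and 133 CPM in the CD44v6-negative samples, which overlapped (log2 fold change -0.58 ± 0.63). That value was 0.28 without CD44v6-negative sample 2.

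The miR-125 guides lay on the other side of 0. miR-125b-5p had 20624 and 4614 CPM in the CD44v6-positive samples, against 11719 and 4875 CPM in the CD44v6-negative samples, and miR-125a-5p had 15290.3 and 5921 CPM against 9031 and 6004 CPM. In both, CD44v6-positive sample 1 was the highest and CD44v6-positive sample 2 the lowest of the 4 samples, so the groups overlapped fully. The log2 fold changes were 0.61 ± 0.79 for miR-125b-5p (edgeR adjusted p = 0.633) and 0.50 ± 0.57 for miR-125a-5p (edgeR adjusted p = 0.592). Leaving out CD44v6-positive sample 1 changed the sign of both, to -0.96 for miR-125b-5p and -0.46 for miR-125a-5p. miR-125a-3p, the rare passenger of MIR125A, had 38.8 and 20.8 CPM in the CD44v6-positive samples and 36.1 and 23.9 CPM in the CD44v6-negative samples. The CD44v6-positive values rest on 36 and 4 reads, and the groups overlapped.

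Summed by seed, the 3 guides with ACCCGUA reached 112716 and 57270.3 CPM in the CD44v6-positive samples and 310570.1 and 110317 CPM in the CD44v6-negative samples, a log2 ratio of group means of -1.31. The 2 guides with CCCUGAG reached 35915 and 10534 CPM in the CD44v6-positive samples and 20750.1 and 10879 CPM in the CD44v6-negative samples, a log2 ratio of 0.55. Both sums overlapped between the groups in TMM-scaled CPM. Without CD44v6-negative sample 1 the ratio for ACCCGUA was -0.38, and without CD44v6-positive sample 1 the ratio for CCCUGAG was -0.59.

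The balance between the seeds does not depend on scaling between libraries, and here the groups stood apart. Guides with the miR-125 seed made up 24.2% and 15.5% of the reads of the 5 guides in the CD44v6-positive samples, against 6.26% and 8.98% in the CD44v6-negative samples. The mean share was 19.9 ± 6.10% in CD44v6-positive and 7.62 ± 1.92% in CD44v6-negative cells (SD, n = 2 each), and both CD44v6-positive samples lay above both CD44v6-negative samples. With 2 samples against 2, an exact two-sided permutation test cannot go below p = 0.333, so no share was tested. Within the reads of the 10 arms, miR-100-5p took 59.9% and 54.8% in the CD44v6-positive samples and 81.9% and 66.4% in the CD44v6-negative samples. miR-125b-5p took 13.8% and 6.67% in the CD44v6-positive samples and 3.53% and 3.97% in the CD44v6-negative samples, and miR-125a-5p took 10.2% and 8.55% against 2.72% and 4.89%. In all 3 the groups did not overlap, whereas they did for miR-99b-5p, at 15.5% and 27.8% against 11.5% and 23.5%. These shares are parts of the same total, so a lower share of miR-100-5p leaves more for the other arms together. The 3 separations are therefore not independent. In TMM-scaled CPM the groups overlapped for all 3 arms, while 59.5% of all miRNAs tested did not overlap. The 95% exact (Clopper-Pearson) intervals of the shares of reads in this paragraph were at most 1.70 percentage points wide and cover counting error only.

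**Figure D3:**
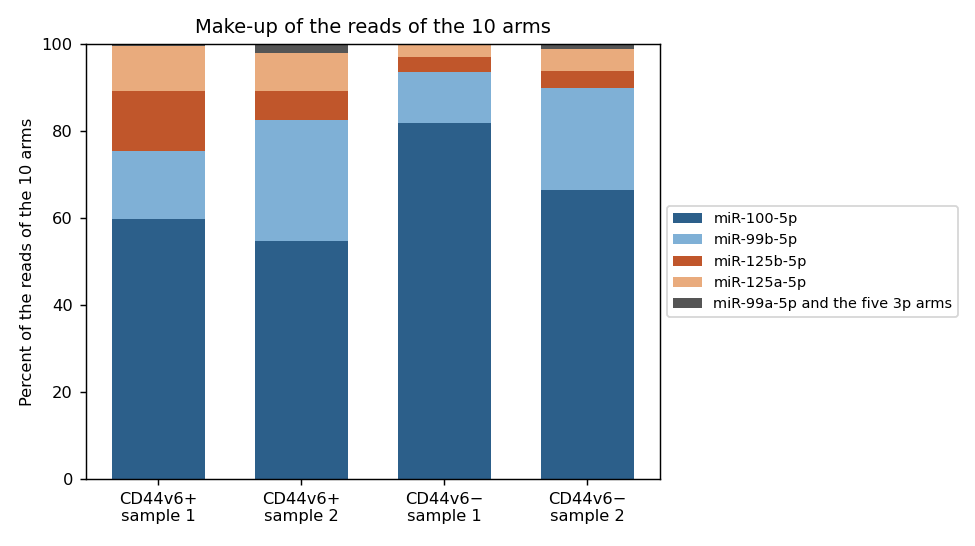
Make-up of the reads of the 10 arms in each sample, in percent, with CD44v6-positive samples on the left. miR-100-5p (dark blue) is the largest part of each bar, at 59.9% and 54.8% in CD44v6-positive and 81.9% and 66.4% in CD44v6-negative samples, and the miR-125 guides (orange shades) are wider in the CD44v6-positive bars.

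The hairpins of chromosome 19 lie within 728 bases, and their guides were not read in a fixed ratio. miR-99b-5p made up 60.3% and 76.5% of its sum with miR-125a-5p in CD44v6-positive samples 1 and 2, against 80.9% and 82.8% in CD44v6-negative samples 1 and 2. Both CD44v6-positive samples lay below both CD44v6-negative samples, with CD44v6-positive sample 1 standing well apart (mean 68.4 ± 11.5% against 81.8 ± 1.31%). Set against let-7e-5p, the let-7 guide between them, miR-99b-5p made up 86.1% and 81.2% of the sum in the CD44v6-positive samples and 88.5% and 91.8% in the CD44v6-negative samples. The miR-125 guides followed the sample number. miR-125b-5p made up 57.4% and 43.8% of its sum with miR-125a-5p in the CD44v6-positive samples and 56.5% and 44.8% in the CD44v6-negative samples. The 2 samples numbered 1 were alike across the groups, and so were the 2 numbered 2, although the guides come from different chromosomes. In each group sample 1 was also the deeper library, so depth and sample number cannot be told apart within a group. The intervals of the shares in this paragraph were at most 4.37 percentage points wide.

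The share of miR-125b-1-3p, the 3p arm of MIR125B1, differed more between sample numbers than between the groups. It made up 2.50% (95% exact interval 2.29 to 2.73) and 19.7% (17.4 to 22.1) of its sum with miR-125b-5p in CD44v6-positive samples 1 and 2. In CD44v6-negative samples 1 and 2 it made up 2.80% (2.68 to 2.94) and 13.5% (13.2 to 13.9). In each group sample 2 was several times above sample 1, and the means of 11.1 ± 12.1% in CD44v6-positive and 8.18 ± 7.60% in CD44v6-negative cells differed by less than the spread. In CPM, miR-125b-1-3p had 529 and 1130.0 in the CD44v6-positive samples against 338 and 764 in the CD44v6-negative samples, which is 0.59 ± 0.64 as a log2 fold change (edgeR adjusted p = 0.568).

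MIR100, MIR99B and MIR125A gave far less of their 3p arm. miR-100-3p made up 0.123% (95% exact interval 0.100 to 0.149) and 0.192% (0.105 to 0.321) of MIR100 reads in the CD44v6-positive samples, against 0.158% (0.151 to 0.164) and 0.716% (0.692 to 0.741) in the CD44v6-negative samples. The intervals of CD44v6-positive sample 2 and CD44v6-negative sample 1 overlapped, and CD44v6-negative sample 2 stood alone. miR-99b-3p made up 0.264% and 0.351% in the CD44v6-positive samples and 0.155% and 0.458% in the CD44v6-negative samples, and miR-125a-3p made up 0.253% and 0.351% against 0.398% and 0.397%. For miR-125a-3p both CD44v6-positive shares lay below both CD44v6-negative shares, with 4 reads behind that of CD44v6-positive sample 2. Its intervals were 0.177 to 0.350 and 0.0956 to 0.895 in CD44v6-positive samples 1 and 2. Each overlapped both CD44v6-negative intervals, 0.344 to 0.459 and 0.332 to 0.470.

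**Figure D4:**
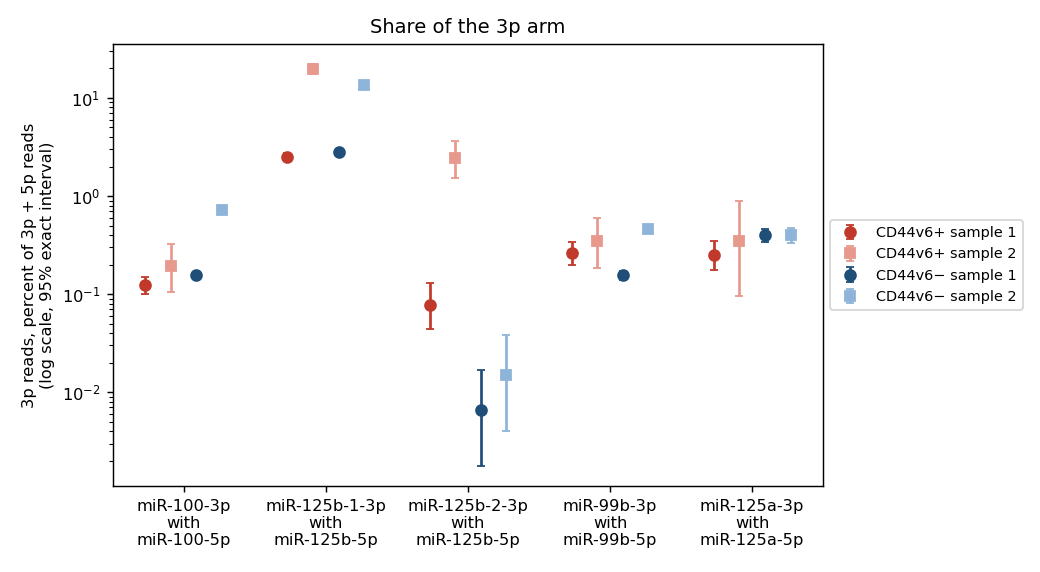
Reads of the 3p arm as a percent of 3p and 5p reads (log axis) for each pair of arms, with 95% exact intervals, CD44v6-positive samples in red and left of CD44v6-negative samples in blue. For miR-125b-1-3p the squares (samples 2) at 19.7% and 13.5% lie far above the circles (samples 1) at 2.50% and 2.80% in both groups, and for miR-125b-2-3p the red points lie above the blue ones.

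The 3p arms of MIR99AHG were rare, and the arm with the largest fold change came from it. miR-125b-2-3p, the 3p arm that only MIR125B2 gives, had 16.2 and 115 CPM in CD44v6-positive samples 1 and 2, from 15 and 22 reads, against 0.765 and 0.725 CPM in the CD44v6-negative samples, from 4 reads in each. Both CD44v6-positive samples lay above both CD44v6-negative samples but also differed several-fold from each other, and the CD44v6-negative counts lay near the limit of 3 reads. The log2 fold change was 6.27 ± 1.20 (edgeR adjusted p = 0.0787), and DESeq2 gave 6.05 (DESeq2 adjusted p = 4.29e-06). The arm passed edgeR's filter on low counts only through the CD44v6-positive samples, where it is high. Its fold change and p-values are therefore given as descriptions, not as separate support for a difference. With 1 sample left out, the edgeR log2 fold change ran from 4.61, without CD44v6-positive sample 2, to 7.08.

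As a share of both miR-125b 3p arms, miR-125b-2-3p made up 2.96% (95% exact interval 1.67 to 4.84) and 9.21% (5.86 to 13.6) in the CD44v6-positive samples. In the CD44v6-negative samples it made up 0.226% (0.0615 to 0.577) and 0.0948% (0.0258 to 0.242). The interval of each CD44v6-positive sample lay above those of both CD44v6-negative samples, but the CD44v6-positive intervals did not overlap each other either. These intervals cover counting error only and do not measure the spread between samples. In every sample most of the 3p reads were those of MIR125B1 on chromosome 11.

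The miR-99 guide of the same cluster was spread differently. miR-99a-5p had 25.9 and 78.1 CPM in the CD44v6-positive samples, against 73.6 and 23.0 CPM in the CD44v6-negative samples, with full overlap and 0.02 ± 0.87 as its log2 fold change (edgeR adjusted p = 0.990). Set beside miR-100-5p, from which it differs only by A16U, it made up 0.0289% (95% exact interval 0.0185 to 0.0430) of their sum in CD44v6-positive sample 1, 0.0270% (0.0244 to 0.0299) in CD44v6-negative sample 1 and 0.0282% (0.0235 to 0.0336) in CD44v6-negative sample 2. These 3 shares agree within counting error. In CD44v6-positive sample 2 the share was 0.205% (0.115 to 0.339), from 15 reads, above the intervals of the other 3 samples. The mismatch setting of the alignment is not given in the sources used here, and whether reads of miR-100-5p with an altered base were counted as miR-99a-5p was not tested. Its passenger miR-99a-3p had 1 read in CD44v6-negative sample 2 and 0 in the other samples.

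Some markers of other tissues were also highest in CD44v6-positive sample 2, and so were some markers of colonic epithelium. Of these, miR-192-5p had 4556 CPM there, against 1031 CPM in CD44v6-positive sample 1 and 1887 and 1321 CPM in the CD44v6-negative samples. miR-194-5p and miR-215-5p were also highest there, at 234 and 250 CPM, while miR-200c-3p, miR-141-3p and miR-200b-3p were lowest there. miR-122-5p, the liver marker, had 48.5 and 609 CPM in CD44v6-positive samples 1 and 2 and 4.59 and 3.99 CPM in the CD44v6-negative samples, the same order as miR-125b-2-3p. The 4 blood markers, all with reads, summed to 30.2 and 344 CPM in the CD44v6-positive samples and 44.9 and 30.8 CPM in the CD44v6-negative samples. Most of the sum in CD44v6-positive sample 2 was miR-451a, at 281 CPM. In that sample miR-142-3p had 20.8 CPM from 4 reads, against 20.3 CPM in CD44v6-negative sample 2, and miR-223-3p had 1 read. The 4 markers of fibroblasts and smooth muscle summed to 914 and 5166 CPM in the CD44v6-positive samples and 1330.4 and 913 CPM in the CD44v6-negative samples. Most of that sum was miR-143-3p, at 745 and 4968 CPM in the CD44v6-positive samples against 1083 and 664 CPM in the CD44v6-negative samples. miR-145-5p, from the same list, had 100.3 and 57.3 CPM in the CD44v6-positive samples against 179 and 197 CPM in the CD44v6-negative samples, so CD44v6-positive sample 2 was its lowest. The endothelial pair, miR-126-3p and miR-126-5p, ran the other way, with sums of 1393 and 1099 CPM in the CD44v6-positive samples against 4175 and 2698 CPM in the CD44v6-negative samples, and so did the 2 neural markers, at 837 and 437 CPM against 1979 and 945 CPM. The neural sum was nearly all miR-9-5p. miR-124-3p had 1.08 CPM in CD44v6-positive sample 1 and 0 reads in CD44v6-positive sample 2. In the CD44v6-negative samples it had 2.29 and 0.362 CPM, so its groups overlapped. The part of RNA from other tissues in the miR-125b-2-3p and miR-99a-5p values was not tested.

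**Figure D5:**
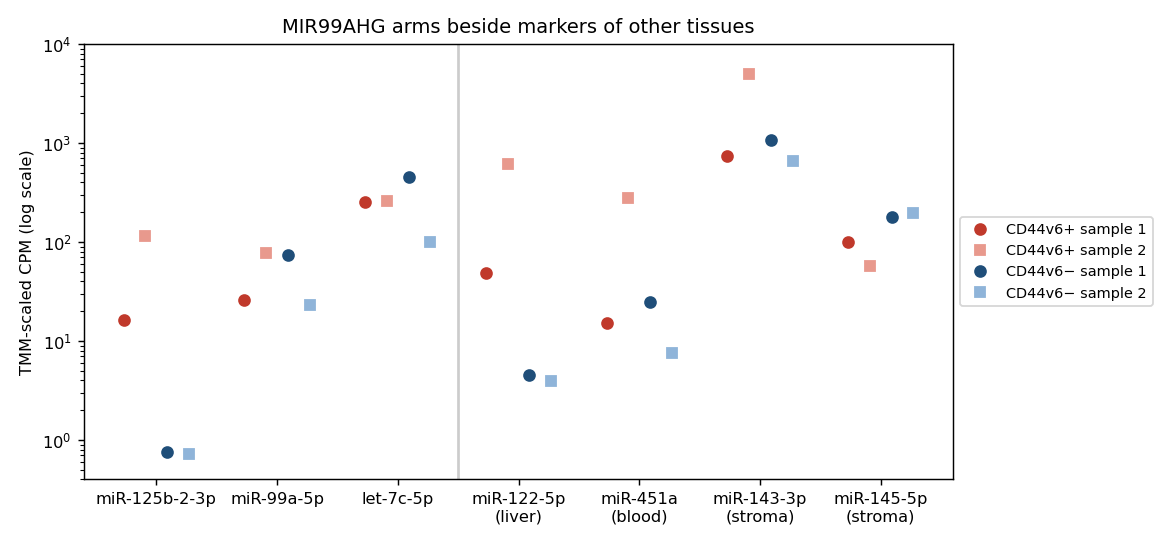
TMM-scaled CPM (log axis) of 3 MIR99AHG arms beside markers of liver, blood and stroma, with CD44v6-positive samples in red and left of CD44v6-negative samples in blue. CD44v6-positive sample 2 (light red square) is the highest point for miR-125b-2-3p at 115 CPM, miR-122-5p at 609 CPM, miR-451a at 281 CPM and miR-143-3p at 4968 CPM but the lowest for miR-145-5p at 57.3 CPM, while let-7c-5p and miR-99a-5p show no such gap.

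The let-7 arms that complete the clusters, whose guides repress growth genes and mark differentiated cells, lie beside the 10 arms. Of 6 such arms, 5 were tested and 0 passed edgeR's test. let-7e-5p, from chromosome 19, had 3733 and 4447 CPM in the CD44v6-positive samples and 4968 and 2593 CPM in the CD44v6-negative samples (log2 fold change 0.11 ± 0.49). let-7c-5p, from MIR99AHG, had 252 and 260.4 CPM against 450.2 and 99.8 CPM (-0.10 ± 0.76), and its 3p arm had 0 reads in every sample. let-7c-5p differs from let-7a-5p by A19G alone and made up 0.338% and 0.531% of their sum in the CD44v6-positive samples and 0.361% and 0.228% in the CD44v6-negative samples. let-7a-2-3p, which only the MIR100HG cluster gives, had 9.70 and 5.21 CPM in the CD44v6-positive samples, from 9 reads and 1 read, against 14.9 and 17.9 CPM in the CD44v6-negative samples, from 78 and 99 reads (-0.99 ± 0.72). The floor of CD44v6-positive sample 2, at 15.6 CPM, lay above the level of CD44v6-negative sample 1, so a difference was not detectable at the depth of that sample. let-7a-5p itself has 3 hairpins and a log2 fold change of -0.45 ± 0.59, and let-7e-3p was at 0.41 ± 0.63.

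By cluster, the arms that only MIR100HG can give summed to 90146 and 39154 CPM in the CD44v6-positive samples and 272965 and 82796 CPM in the CD44v6-negative samples, nearly all of it miR-100-5p. Those of chromosome 19 summed to 38574 and 25250.4 CPM against 47426 and 35010.4 CPM, a log2 ratio of -0.37 that was -0.03 with upper quartile scaling. Those of MIR99AHG summed to 42.1 and 193 CPM against 74.4 and 23.7 CPM, a log2 ratio of 1.26 that was -0.22 without CD44v6-positive sample 2. The groups overlapped in all 3 sums in TMM-scaled CPM.

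Outside the families, the miRNAs whose levels over the 4 samples were most like miR-100-5p were miR-21-5p, miR-23a-3p and miR-34a-5p, with root mean square differences of 0.15, 0.23 and 0.25 on the centred log2 CPM scale. miR-21-5p had 53110 and 30036 CPM in the CD44v6-positive samples and 181200 and 59037 CPM in the CD44v6-negative samples, with CD44v6-negative sample 1 again the highest. For miR-125b-5p they were miR-574-3p, miR-222-5p and miR-184, at 0.13, 0.22 and 0.24. miR-574-3p had 814 and 177.05 CPM in the CD44v6-positive samples and 571 and 211 CPM in the CD44v6-negative samples, so CD44v6-positive sample 1 was highest and CD44v6-positive sample 2 lowest, as for miR-125b-5p. These likenesses rest on 4 samples that share libraries of unequal depth and are given as descriptions.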

How the data were processed

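Small RNA was sequenced from sorted HCT116 spheroid cells, per the labels' protocols. The authors deposited raw read counts per mature miRNA, used here as given, with no step of normalization. Bowtie 0.12.9, cutadapt 1.10, CASAVA 1.8.2, DESeq2 and the build GRCh38 are named, without roles, per the submitters' processing notes. Annotation, mismatch and multi-mapping settings were not given in the sources used here, so reads of near-identical arms could be split or shared. The deposited table of DESeq2-scaled counts was not used.

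The labels list 8 sequencing entries with 4 combined identities, and per the file headers each column holds 1 identity, so n was 2 per group, whereas the series text counts 4. No label states separate cultures, so the spread behind each p-value may be technical.

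All rows were fitted with edgeR 4.0.16 in R 4.3.3 (filterByExpr with min.count 10 and min.total.count 15, TMM, glmQLFit and glmQLFTest), checked on simulated data. P-values were Benjamini-Hochberg adjusted over all miRNAs tested, with a threshold of 0.05. Standard errors were taken as the size of the log2 fold change over the root of F. Alternatives were DESeq2 1.42.0, limma-voom (limma 3.58.1), other scalings and filters, a replicate block and leaving out each sample. The arms, lists, tests and the rule for naming miRNAs were chosen with earlier results of these data known. The rule named all 10 arms, their let-7 neighbours, the other arm of MIR99A, other miRNAs in the table with the same seed, and the 3 miRNAs closest in pattern to miR-100-5p and to miR-125b-5p.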

Additional observations from a re-analysis of the deposited data

How the results depend on the processing

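edgeR called 0 miRNAs and 0 of the 10 arms, and RLE scaling, upper quartile scaling and the 10 CPM filter also called 0. Total count scaling called 48 of 570 miRNAs and 1 of the 10 arms, and no filter called 77 of 1510 miRNAs and 2 of the 10 arms. DESeq2 called 52 of 590 miRNAs and 2 of the 10 arms, and limma-voom called 4 of 570 and 0. With 1 sample left out, where the lone sample of a group is assumed to vary like the other group, edgeR called 26 to 55 miRNAs and 1 to 2 of the 10 arms. The number of miRNAs tested in each of these fits is not given here. The share of the 10 arms called in them therefore cannot be set against that of all miRNAs. With the number 1 or 2 of the combined identity as a replicate block, edgeR called 228 of the 570 miRNAs tested. It then called 3 of the 10 arms, miR-100-5p, miR-100-3p and miR-125b-2-3p, a smaller share than among all miRNAs tested. Deviations of same-numbered samples correlated at r = 0.37 across the 570 miRNAs tested. The labels give no reason for the shared number, so the block is an alternative only.

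Of 120 alternative log2 fold changes of the 10 arms, 92 kept both direction and side of the threshold, 14 passed it in the same direction and 14 changed sign, none of which passed. miR-99a-5p was -0.0025 with RLE scaling, -0.52 with no filter, -0.27 with DESeq2 and -0.066 with limma-voom, and miR-125a-3p was -0.31 with no filter, -0.084 with DESeq2 and -0.0097 with the replicate block. Over the fits that leave out 1 sample each, log2 fold changes ran from -0.72 to 1.16 for miR-99a-5p, from -0.64 to 0.58 for miR-125a-3p, from -0.98 to 0.28 for miR-99b-3p, from -0.96 to 1.50 for miR-125b-5p and from -0.46 to 1.23 for miR-125a-5p. The cause of these changes was not tested. Among the untested values, 15 of 115 differences in shares and 2 of 35 log2 ratios of summed CPM changed sign under an alternative. Depth limits the rare arms most, since CD44v6-positive sample 2 held 4 reads of miR-125a-3p and 13 of miR-99b-3p.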
